A study of Solanum lycopersicum with 36 samples.

Results

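The genes described here are the blue-light and UV-B receptor genes of tomato (Solanum lycopersicum): the cryptochromes CRY1a, CRY1b and CRY2, the related gene CRY-DASH, and the UV-B receptor gene UVR8. They were chosen by identifier and are 5 of the 34075 gene identifiers in the count files. All 5 passed the filter on low counts in both assays. The identifiers, as the files give them, are gene:Solyc04g074180.4 for CRY1a, Solyc12g057040 for CRY1b, Solyc09g090100 for CRY2, Solyc08g074270 for CRY-DASH and gene:Solyc05g018630.1 for UVR8. By their identifiers these genes lie on chromosomes 4, 12, 9, 8 and 5. The RefSeq gene table SLM_r2.1 lists CRY1A, Cry1b and CRY2 on chromosomes 4, 12 and 9, but it holds none of the identifiers of the files (0 of 34075 matched), so the pairing of names and identifiers rests on the rule that chose the genes.

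Cryptochromes are flavin-binding relatives of the DNA photolyases. On absorbing blue light, the plant receptors hold back the COP1 ubiquitin ligase complex and act on transcription factors, which ties them to seedling greening, flowering time and the setting of the circadian clock. UVR8 is a dimer that separates into monomers on absorbing UV-B and then binds COP1, and its known outputs include flavonoid synthesis. CRY-DASH proteins form a separate branch, known for the repair of UV damage in single-stranded DNA.

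Leaves of tomato genotype HeinZ 1706 were collected from plants 4 weeks old that had grown at 25 °C under 12 h of light and 12 h of darkness. The 6 groups are named by phase and hour: Light 0 h, Light 4 h, Light 8 h, Dark 0 h, Dark 4 h and Dark 8 h, and no other treatment separates them. Each group has 3 mRNA libraries, made from polyadenylated RNA, and 3 GMUCT libraries, an assay that reads the 5′ ends of RNAs without a cap and so counts uncapped and cleaved RNA. By its title, the study asked how rapid RNA turnover contributes to circadian gene regulation. Neither the light source nor its UV-B content is stated in the labels, nor what the hour counts from. Whether the replicates were separate plants is not stated, so the p-values reflect the spread between these libraries, which may be technical.

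Reads counted in genes ranged from 6632784 to 27126312 per mRNA library and from 15739253 to 20581411 per GMUCT library. Levels are given in CPM, counts scaled to library size within each assay. No gene lengths were available, so levels are not compared between genes. As a check of the tissue, 4 of 5 identifiers listed as leaf genes had mean mRNA levels of 144 to 626 CPM and 1 was at 0 CPM, while 2 identifiers listed as ripe-fruit genes were at 8.06 and 0 CPM. The Dark 0 h libraries stood apart. Over the genes used for matching, all 30 libraries of the other 5 times resembled the same time in the other assay most, whereas this held for 0 of 3 mRNA and 0 of 3 GMUCT libraries of Dark 0 h. The mRNA libraries of Dark 0 h resembled the GMUCT libraries of Dark 4 h or Dark 8 h most, and the GMUCT libraries of Dark 0 h resembled the mRNA libraries of Light 8 h most. The cause was not tested, and neither was whether the Dark 0 h labels hold in both assays, so each value given for Dark 0 h is that of the libraries labelled so. Tests over the whole day are given with and without Dark 0 h, and single contrasts with Dark 0 h rest on those libraries.

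Each of the 5 genes differed among the 6 times in both assays (edgeR quasi-likelihood F-test, Benjamini-Hochberg adjusted p under 0.05). In mRNA the adjusted p was 0.000173 for CRY1a, 3.16e-06 for CRY1b, 2.44e-05 for CRY2, 0.0136 for CRY-DASH and 0.0289 for UVR8. In GMUCT it was 4.67e-07 for CRY1a, 1.41e-06 for CRY1b, 0.0361 for CRY2, 0.00717 for CRY-DASH and 1.35e-06 for UVR8. A count of 5 of 5 has to be read against a background of 70.9% of all genes tested in mRNA and 58.4% in GMUCT. Leaving out Dark 0 h, the adjusted p in mRNA was 9.16e-05 for CRY1a, 6.33e-06 for CRY1b, 2.89e-05 for CRY2 and 0.00912 for CRY-DASH. In GMUCT without Dark 0 h it was 2.56e-06 for CRY1a, 4.76e-06 for CRY1b, 0.0309 for CRY-DASH and 1.18e-05 for UVR8. A pair of the calls was near the threshold. For UVR8 in mRNA the call was lost without Dark 0 h (adjusted p = 0.174), without Dark 0 h replicate 2 (0.0643), without Dark 0 h replicate 3 (0.0582) and without Dark 4 h replicate 2 (0.0592). For CRY2 in GMUCT it was lost when any 1 of 10 of the 18 libraries was left out, with an adjusted p of up to 0.0767, but it held without Dark 0 h (0.0175).

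CRY1a and CRY1b, the receptors of the CRY1 type, were highest at Light 0 h in both assays. CRY1a mRNA was 110, 119 and 114 CPM in the 3 libraries of Light 0 h, 91.0, 96.3 and 106 CPM at Light 4 h, and 72.8, 92.6 and 86.3 CPM at Light 8 h. The dark groups had 81.4, 88.4 and 63.6 CPM at 0 h, 53.0, 51.3 and 61.4 CPM at 4 h, and 66.0, 67.5 and 86.6 CPM at 8 h. All Light 0 h libraries lay above all others, all Dark 4 h libraries lay below all others, and the Light 4 h, Light 8 h, Dark 0 h and Dark 8 h groups formed a continuous middle with overlapping neighbours. The highest group mean was 2.07 times the lowest. In a bulk leaf sample, fewer cells with a transcript and less of the transcript per cell cannot be told apart.

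No single step of CRY1a mRNA within the light phase passed the test, with log2 changes of -0.22 (95% interval -0.54 to 0.10) from Light 0 h to 4 h and -0.22 (-0.55 to 0.10) from 4 h to 8 h. At the same hour, Dark 4 h was below Light 4 h by a log2 change of -0.82 ± 0.16 (SE, 3 libraries a group, edgeR adjusted p = 0.000260), a fold of 1.77. The fall from Dark 0 h to Dark 4 h (-0.49 ± 0.15, adjusted p = 0.0268) and the rise from Dark 8 h to Light 0 h (0.64 ± 0.15, adjusted p = 0.0164) passed as well. The fall was lost without Dark 0 h replicate 1 (adjusted p = 0.0575), Dark 0 h replicate 2 (0.112), Dark 4 h replicate 1 (0.0601) or Dark 4 h replicate 2 (0.0666). The rise was lost without Dark 8 h replicate 1 (0.102), Dark 8 h replicate 2 (0.0694), Light 0 h replicate 2 (0.0590) or Light 0 h replicate 3 (0.0510).

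**Figure D1:**
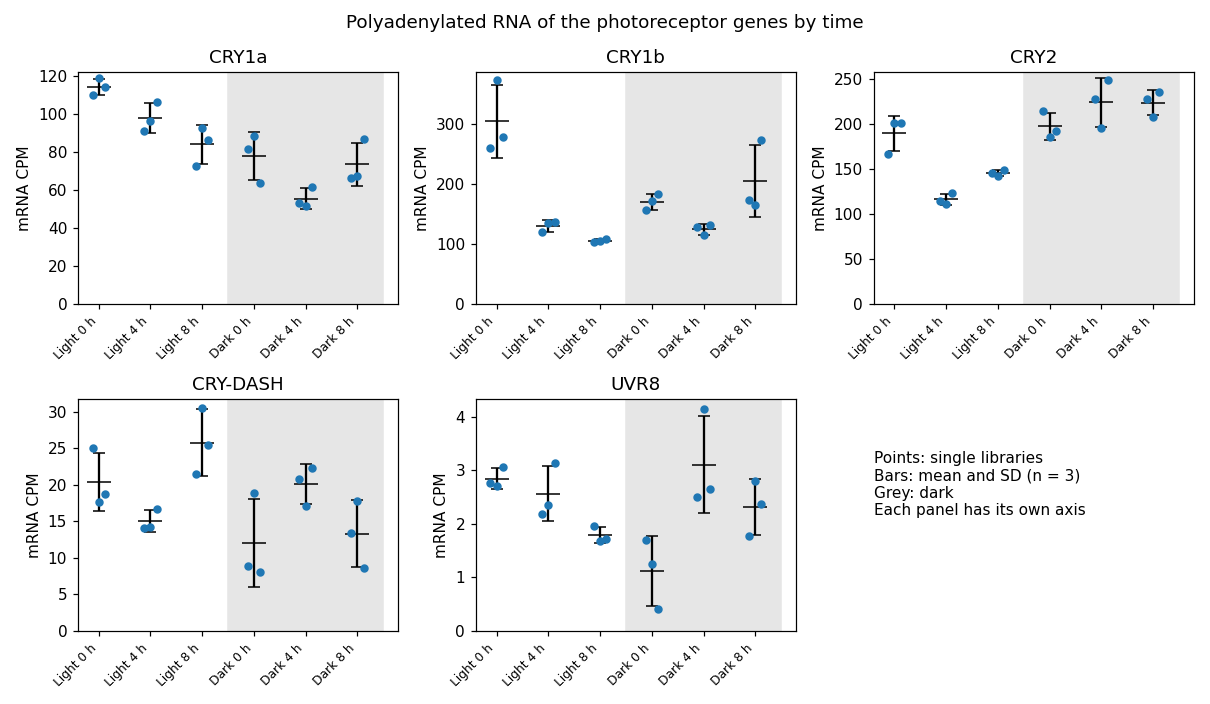
mRNA level in CPM (vertical axes, each starting at 0) of CRY1a, CRY1b, CRY2, CRY-DASH and UVR8 at the 6 times of the day (horizontal axes), with points for single libraries and bars for the mean and SD of 3 libraries. CRY1a and CRY1b are highest at Light 0 h, CRY2 is lowest at Light 4 h and highest at Dark 4 h, and CRY-DASH and UVR8 have their lowest means at Dark 0 h.

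CRY1a fragments in GMUCT were also highest at Light 0 h, with their lowest means at Dark 0 h and Dark 4 h. They stood at 253, 270 and 271 CPM at Light 0 h, 228, 214 and 194 CPM at Light 4 h, and 151, 167 and 164 CPM at Light 8 h. In the dark they stood at 94.6, 124 and 103 CPM at 0 h, 96.2, 116 and 112 CPM at 4 h, and 154, 158 and 155 CPM at 8 h. The groups of the light phase did not overlap one another, the Dark 0 h and Dark 4 h libraries overlapped at the bottom, and Dark 8 h overlapped Light 8 h.

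The drop from Light 8 h to Dark 0 h was -0.59 ± 0.12 on the log2 scale (edgeR adjusted p = 0.00510), and Dark 0 h was 2.47-fold below Light 0 h (-1.31 ± 0.12, adjusted p = 3.02e-07). Dark 4 h was below Light 4 h by -0.97 ± 0.12 (adjusted p = 1.10e-05), and the return from Dark 8 h to Light 0 h was 0.77 ± 0.12 (adjusted p = 0.000491). These calls held whichever library was left out. Smaller steps also passed but were less firm: Light 0 h to 4 h (-0.32, adjusted p = 0.0452) was lost without any 1 of 12 of the 18 libraries (adjusted p up to 0.170), Light 4 h to 8 h (-0.40, adjusted p = 0.0316) without any 1 of 6 (up to 0.129), and Dark 4 h to 8 h (0.53, adjusted p = 0.0184) without Dark 4 h replicate 1 (0.0976) or Dark 8 h replicate 2 (0.0704).

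CRY1b dropped steeply from Light 0 h to Light 4 h in each assay. Its mRNA was 261, 374 and 280 CPM at Light 0 h, 119, 135 and 137 CPM at Light 4 h, and 103, 105 and 108 CPM at Light 8 h. The dark libraries held 156, 171 and 184 CPM at 0 h, 128, 114 and 132 CPM at 4 h, and 174, 166 and 274 CPM at 8 h. Light 0 h and Dark 8 h overlapped because of 1 Dark 8 h library at 274 CPM, and every library of Light 4 h and Light 8 h lay below every library of Light 0 h, Dark 0 h and Dark 8 h.

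The drop in CRY1b mRNA to Light 4 h was 2.34-fold (log2 -1.22 ± 0.18, edgeR adjusted p = 2.34e-05). The level then rose between Light 8 h and Dark 0 h (0.70 ± 0.18, adjusted p = 0.00412), and Dark 8 h was above Light 8 h by 0.96 ± 0.18 (adjusted p = 0.000234). Dark 4 h and Light 4 h differed by -0.07 (95% interval -0.45 to 0.31), a contrast that did not pass (adjusted p = 0.789). The rise from Dark 4 h to Dark 8 h passed (0.72 ± 0.18, adjusted p = 0.0116), but it was lost without Dark 8 h replicate 3, the library at 274 CPM (0.45, adjusted p = 0.0733), and without Dark 4 h replicate 2 (adjusted p = 0.0540). Without that same Dark 8 h library, the rise from Dark 8 h to Light 0 h, which did not pass with all libraries (0.58, adjusted p = 0.0704), passed (0.81, adjusted p = 0.00508), as it did with DESeq2 on all libraries (0.0304).

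In GMUCT, CRY1b stood at 319, 343 and 349 CPM at Light 0 h, 169, 172 and 136 CPM at Light 4 h, and 112, 134 and 122 CPM at Light 8 h. In the dark groups it stood at 144, 154 and 117 CPM at 0 h, 191, 186 and 175 CPM at 4 h, and 202, 222 and 258 CPM at 8 h. Light 0 h stood above every other group without overlap, and the 3 dark groups followed one another upward with no overlap between them. The drop to Light 4 h was 2.12-fold (log2 -1.08 ± 0.14, edgeR adjusted p = 3.35e-05), and Dark 8 h was above Light 8 h by 0.89 ± 0.13 (adjusted p = 0.000126). From Light 8 h to Dark 0 h, where the mRNA rose, the GMUCT change was 0.17 (95% interval -0.11 to 0.46, adjusted p = 0.450).

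The CRY1b rise in GMUCT between Dark 0 h and Dark 4 h (0.41 ± 0.13, edgeR adjusted p = 0.0335) was lost without Dark 0 h replicate 1 (adjusted p = 0.0514), Dark 0 h replicate 3 (0.143), Dark 4 h replicate 1 (0.0940) or Dark 4 h replicate 2 (0.0855). The rise from Dark 8 h to Light 0 h (0.57 ± 0.13, adjusted p = 0.0160) was lost without Dark 8 h replicate 1 (0.0780), Dark 8 h replicate 2 (0.0605), Light 0 h replicate 2 (0.0558) or Light 0 h replicate 3 (0.0527).

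**Figure D2:**
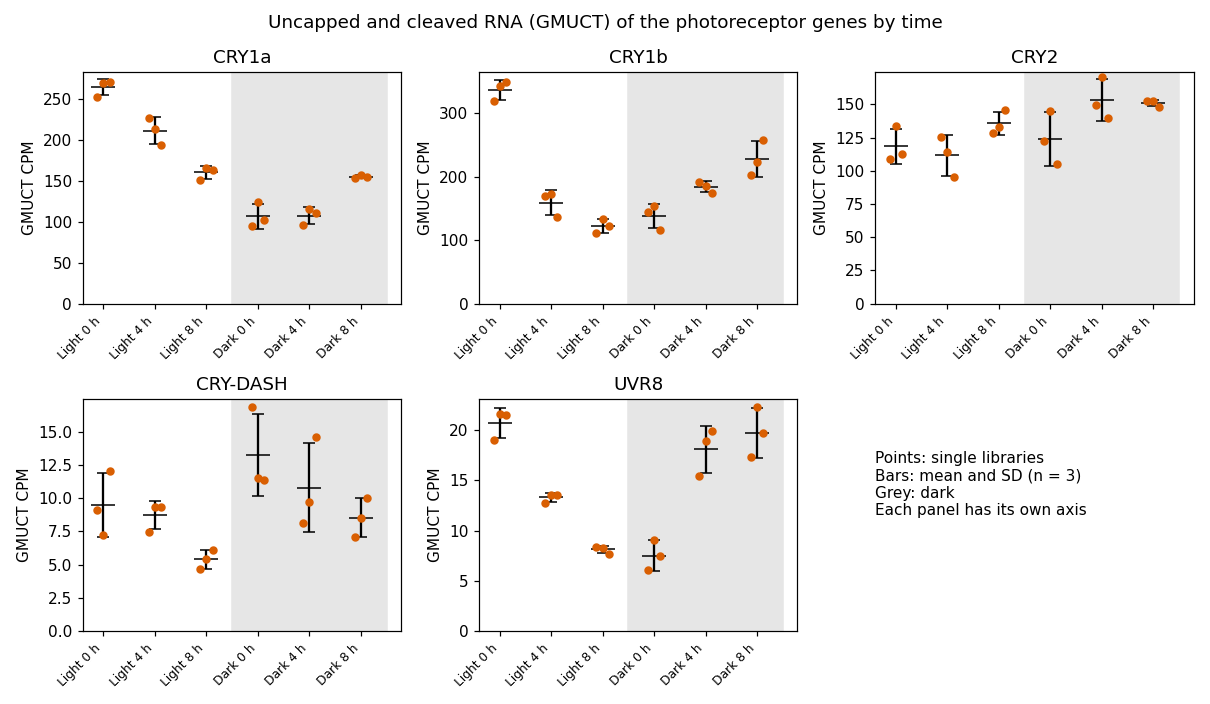
GMUCT level in CPM (vertical axes, each starting at 0) of the same 5 genes at the 6 times (horizontal axes), with points for single libraries and bars for the mean and SD of 3 libraries. CRY1a and CRY1b are highest at Light 0 h, UVR8 is low at Light 8 h and Dark 0 h, and CRY-DASH has its lowest mean at Light 8 h and its highest at Dark 0 h.

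CRY2, whose protein is degraded under blue light in Arabidopsis, had its lowest mRNA levels at Light 4 h and Light 8 h and higher levels in the dark and at Light 0 h. Its mRNA was 167, 201 and 201 CPM at Light 0 h, 115, 111 and 123 CPM at Light 4 h, and 146, 142 and 149 CPM at Light 8 h. In the dark groups it was 214, 185 and 192 CPM at 0 h, 228, 195 and 249 CPM at 4 h, and 227, 208 and 236 CPM at 8 h. The Light 4 h libraries were the lowest and the Light 8 h libraries the next, each without overlap, while the 3 dark groups overlapped one another and Dark 0 h overlapped Light 0 h.

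CRY2 mRNA fell from Light 0 h to Light 4 h by 0.71 ± 0.13 on the log2 scale (edgeR adjusted p = 0.000279) and rose between Light 8 h and Dark 0 h (0.44 ± 0.13, adjusted p = 0.0123). Dark 4 h was 1.93-fold above Light 4 h (log2 0.95 ± 0.14, adjusted p = 1.40e-05), and Dark 8 h was above Light 8 h by 0.62 ± 0.13 (adjusted p = 0.000787). These 4 calls held whichever library was left out. Dark 0 h and Light 0 h differed by 0.06 (95% interval -0.22 to 0.34, adjusted p = 0.771). The direction at Dark 4 h against Light 4 h was opposite to that of CRY1a.

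CRY2 in GMUCT spanned a narrower range, with the highest group mean 1.37 times the lowest. It stood at 109, 134 and 113 CPM at Light 0 h, 126, 114 and 95.4 CPM at Light 4 h, and 129, 133 and 146 CPM at Light 8 h. The dark libraries stood at 122, 145 and 105 CPM at 0 h, 149, 171 and 140 CPM at 4 h, and 152, 152 and 148 CPM at 8 h. Neighbouring groups overlapped everywhere in the order of levels except between Dark 8 h and Light 8 h. Between Light 0 h and Light 4 h, where the mRNA fell, the GMUCT change was -0.09 (95% interval -0.38 to 0.20, edgeR adjusted p = 0.674). Dark 4 h was above Light 4 h by 0.46 ± 0.14 (adjusted p = 0.0176), a call lost without Dark 4 h replicate 2 (0.0774) or Light 4 h replicate 3 (0.0919).

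CRY-DASH moved in opposite directions in mRNA and GMUCT between Light 8 h and Dark 0 h. Its mRNA was 25.0, 17.6 and 18.7 CPM at Light 0 h, 14.1, 14.2 and 16.7 CPM at Light 4 h, and 21.5, 30.5 and 25.4 CPM at Light 8 h. The dark groups had 8.94, 18.9 and 8.08 CPM at 0 h, 20.8, 17.1 and 22.3 CPM at 4 h, and 13.4, 17.8 and 8.65 CPM at 8 h. Every Light 8 h library lay above every library of Light 4 h, Dark 0 h and Dark 8 h, and of the Dark 0 h libraries replicate 2 lay at 18.9 CPM, above the other two at 8.94 and 8.08 CPM.

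CRY-DASH mRNA fell 2.13-fold from Light 8 h to Dark 0 h (log2 -1.09 ± 0.29, edgeR adjusted p = 0.00466), a call that held whichever library was left out. Dark 8 h was below Light 8 h by -0.96 ± 0.29 (adjusted p = 0.00943), which was lost without Dark 8 h replicate 3 (-0.71, adjusted p = 0.0584). Dark 0 h was below Light 0 h by -0.76 ± 0.29 (adjusted p = 0.0439), which was lost without any 1 of 12 of the 18 libraries (adjusted p up to 0.202). The steps between Light 4 h and Light 8 h (0.78, adjusted p = 0.0708) and between Dark 0 h and Dark 4 h (0.73, adjusted p = 0.0737) did not pass. Without Dark 0 h replicate 2 both passed, at 0.78 (adjusted p = 0.0224) and 1.24 (adjusted p = 0.00305), and the first also passed in a fit of its 2 groups alone (0.77, adjusted p = 0.00519).

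In GMUCT, CRY-DASH stood at 9.10, 7.26 and 12.0 CPM at Light 0 h, 7.49, 9.32 and 9.34 CPM at Light 4 h, and 4.67, 5.41 and 6.08 CPM at Light 8 h. In the dark it stood at 16.9, 11.5 and 11.4 CPM at 0 h, 8.10, 9.72 and 14.6 CPM at 4 h, and 7.09, 8.53 and 10.02 CPM at 8 h. The Light 8 h libraries were the lowest without overlap with any group, and Dark 0 h overlapped Dark 4 h and Light 0 h. The counts behind these values ran from 92 to 295 per library. GMUCT rose 2.46-fold from Light 8 h to Dark 0 h (log2 1.30 ± 0.25, edgeR adjusted p = 0.00392), also whichever library was left out. The decline between Light 4 h and Light 8 h (-0.69, 95% interval -1.22 to -0.17, adjusted p = 0.0795) and the difference between Dark 8 h and Light 8 h (0.66, 95% interval 0.14 to 1.19, adjusted p = 0.0506) did not pass. Both passed with DESeq2 (adjusted p = 0.0436 and 0.0320) and in edgeR fits of the 2 groups alone (0.0352 and 0.0416), and the second also with RLE scaling (0.0446). The first did not pass with RLE scaling, nor whichever library was left out (edgeR adjusted p 0.0501 to 0.238). The second passed without any 1 of 6 of the 18 libraries.

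UVR8 had few mRNA reads and a clear course in GMUCT. Its mRNA rested on 6 to 79 counts per library, at 2.76, 2.71 and 3.07 CPM at Light 0 h, 2.18, 2.36 and 3.15 CPM at Light 4 h, and 1.96, 1.69 and 1.72 CPM at Light 8 h. In the dark it was 1.71, 1.25 and 0.404 CPM at 0 h, 2.503, 4.15 and 2.66 CPM at 4 h, and 1.78, 2.81 and 2.37 CPM at 8 h. All neighbouring groups overlapped, and the Dark 0 h libraries were at or near the bottom. The rise from Dark 0 h to Dark 4 h was 1.46 ± 0.39 on the log2 scale (edgeR adjusted p = 0.0109) and was lost without Dark 4 h replicate 2 (1.15, adjusted p = 0.0672). Dark 0 h was below Light 0 h by -1.32 ± 0.38 (adjusted p = 0.0114), which held whichever library was left out but not in a fit of these 2 groups alone (0.0574). Dark 8 h and Light 8 h differed by 0.36 (95% interval -0.45 to 1.17, adjusted p = 0.465).

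In GMUCT, UVR8 rested on 99 to 418 counts per library. It stood at 19.0, 21.6 and 21.5 CPM at Light 0 h, 12.8, 13.6 and 13.5 CPM at Light 4 h, and 8.37, 8.27 and 7.70 CPM at Light 8 h. In the dark it stood at 6.03, 9.05 and 7.45 CPM at 0 h, 15.4, 18.9 and 19.9 CPM at 4 h, and 17.3, 22.3 and 19.7 CPM at 8 h. The libraries fell into a high set (Dark 4 h, Dark 8 h and Light 0 h), the Light 4 h libraries below it, and a low set (Light 8 h and Dark 0 h), with no overlap between them.

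UVR8 in GMUCT fell from Light 0 h to 4 h (-0.64 ± 0.15, edgeR adjusted p = 0.00500) and from Light 4 h to 8 h (-0.71 ± 0.15, adjusted p = 0.00524). It rose 2.404-fold from Dark 0 h to Dark 4 h (1.27 ± 0.16, adjusted p = 4.16e-05). Dark 8 h was 2.43-fold above Light 8 h (1.28 ± 0.15, adjusted p = 1.48e-05), and Dark 0 h was 2.75-fold below Light 0 h (-1.46 ± 0.16, adjusted p = 1.95e-06). These 5 calls held whichever library was left out. Dark 4 h was above Light 4 h by 0.44 ± 0.15 (adjusted p = 0.0338), which was lost without any 1 of 6 of the 18 libraries (adjusted p up to 0.118).

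**Figure D3:**
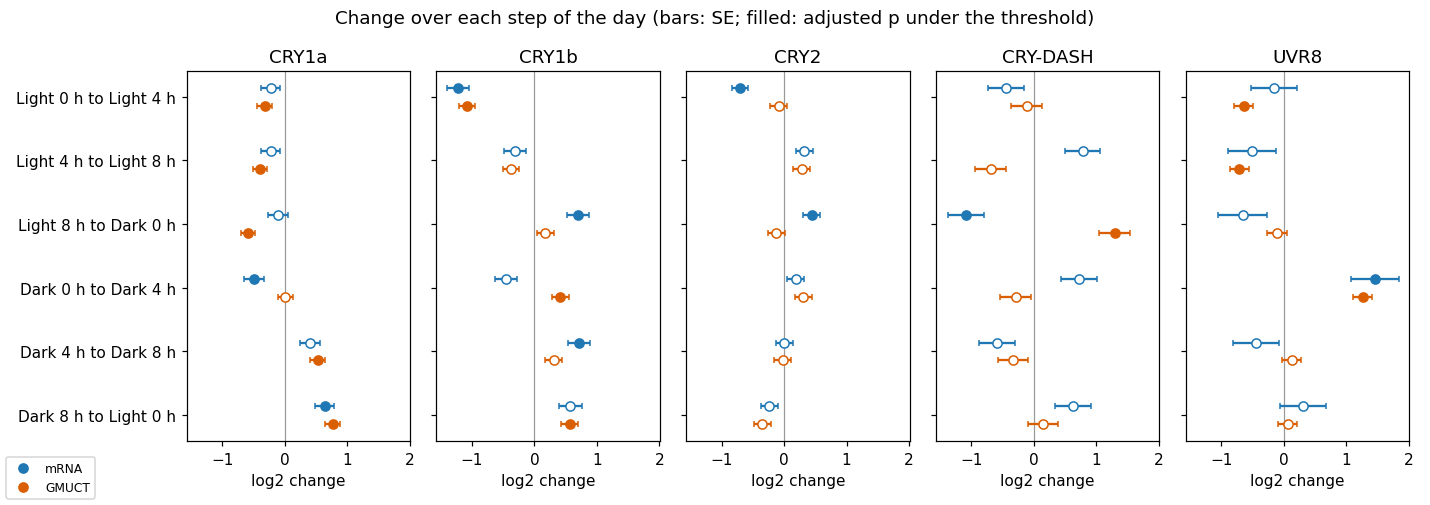
Log2 change (horizontal axis) over each of the 6 steps round the day (rows) for the 5 genes, in mRNA (blue) and GMUCT (orange), with bars for the SE and filled points where the edgeR adjusted p was under 0.05. CRY-DASH from Light 8 h to Dark 0 h is the step with called changes of opposite direction, -1.09 in mRNA and 1.30 in GMUCT.

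Counts of called genes among the 5 have to be read against the share of all genes called in the same contrast, given here as the background. From Light 0 h to Light 4 h, 2 of 5 were called in mRNA (CRY1b and CRY2, both lower, background 47.2%) and 3 in GMUCT (CRY1a, CRY1b and UVR8, all lower, 30.6%). From Light 4 h to Light 8 h, edgeR called 0 of 5 in mRNA (16.7%), with 2 at an unadjusted p under 0.05 and 0 called by DESeq2. A fit of the 2 groups alone was read for CRY1a, CRY2 and CRY-DASH only. It called CRY2 (0.32, edgeR adjusted p = 0.0245) and CRY-DASH. In GMUCT, 2 of 5 were called (CRY1a and UVR8, both lower, 13.4%). At the change to Dark 0 h, 3 were called in mRNA (43.7%) and 2 in GMUCT (CRY1a lower and CRY-DASH higher, 8.67%).

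Within the dark phase, 2 of 5 were called in mRNA from 0 h to 4 h (23.7%) and 2 in GMUCT (25.8%), with UVR8 higher in both. Between Dark 4 h and Dark 8 h, CRY1b was called in mRNA (15.4%) and CRY1a in GMUCT (4.19%), both higher. The return to Light 0 h gave 1 call in mRNA (5.92%) and 2 in GMUCT (6.25%), all higher and all of the CRY1 type. At the same hour of each phase, 4 of 5 were called between Dark 0 h and Light 0 h in mRNA (36.9%) and 3 in GMUCT (46.5%), all lower in the dark. Of the mRNA calls, that of CRY1a (-0.55 ± 0.15, adjusted p = 0.00844) was lost without Dark 0 h replicate 3 (0.0508), and that of CRY-DASH without any 1 of 12 of the 18 libraries. An edgeR fit of these 2 groups alone ended the mRNA calls of CRY1a (adjusted p = 0.0537), CRY-DASH (0.1035) and UVR8 (0.0574), but not that of CRY1b. Dark 4 h against Light 4 h gave 2 calls in mRNA (45.7%) and 3 in GMUCT (33.3%), and Dark 8 h against Light 8 h gave 3 (50.1%) and 2 (32.8%).

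A test for a cosine and sine of 24 h, with the groups placed at hours 0, 4, 8, 12, 16 and 20 by reading each label's hour as time within its phase, called 4 of 5 genes in mRNA (background 68.2%) and 5 of 5 in GMUCT (62.7%). CRY1a had its fitted peak at hour 3.01 in mRNA and 1.76 in GMUCT (edgeR adjusted p = 5.61e-05 and 4.64e-08). CRY1b peaked at hour 22.0 in mRNA (adjusted p = 2.5e-05) and hour 22.0 in GMUCT (4.11e-07), and CRY2 at hour 17.4 in mRNA (3.09e-06) and hour 16.5 in GMUCT (0.0230). UVR8 peaked at hour 22.8 in mRNA (0.0310) and 21.5 in GMUCT (1.24e-07). The fitted curve took 96.4% of the variance of the CRY1a group means in GMUCT and 9.04% for CRY-DASH in mRNA. Of the fits with a peak hour given here, it took least for CRY1b and UVR8 in mRNA, 49.9 and 51.0%, and 60.7 to 96.4% for the others. The highest UVR8 mRNA mean was at Dark 4 h, placed at hour 16.

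With Dark 0 h left out, the 24 h test gave an adjusted p in mRNA of 2.30e-05 for CRY1a, 4.58e-06 for CRY1b and 6.62e-06 for CRY2. In GMUCT it gave 6.58e-07 for CRY1a, 2.78e-06 for CRY1b, 0.00569 for CRY2 and 2.50e-06 for UVR8, while the fitted peak hours above use Dark 0 h. For CRY-DASH the 24 h test did not pass in mRNA (edgeR adjusted p = 0.468) but did without Dark 0 h (0.0402). In GMUCT it passed (0.0467, and 0.0409 without Dark 0 h), and was lost without any 1 of 11 of the 18 libraries (up to 0.169). The UVR8 call in mRNA was lost without Dark 0 h (0.308) and without any 1 of 5 of the 18 libraries (up to 0.0659), and the CRY2 call in GMUCT without Dark 4 h replicate 2 (0.0728) or Light 4 h replicate 3 (0.0770). With 6 times in 1 day of light and dark, clock-driven change and a response to the light itself cannot be told apart.

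Change in the GMUCT to mRNA ratio was tested among the 6 times as an interaction of assay and time over all 36 libraries. It changed for 4 of 5 genes, against 53.7% of all genes tested, with edgeR adjusted p = 0.0158 for CRY1a, 0.0366 for CRY1b, 0.00335 for CRY2 and 0.000659 for CRY-DASH, and did not pass for UVR8 (0.275). Leaving out Dark 0 h ended the call for CRY1a (0.574) and CRY1b (0.453), kept it for CRY2 (0.00879) and CRY-DASH (0.00448), and brought UVR8 under the threshold (0.0497). The CRY1a call was also lost without GMUCT Dark 0 h replicate 1 (0.0694), GMUCT Dark 0 h replicate 3 (0.0515) or mRNA Dark 0 h replicate 2 (0.0673), and the CRY1b call without any 1 of 8 of the 36 libraries, all of Dark 0 h or Dark 4 h (up to 0.113).

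The ratios below are of CPM values within each assay's scaling, with the SD carried over from both assays. CRY1a had a ratio of 2.32 ± 0.124 at Light 0 h and its lowest at Dark 0 h, 1.38 ± 0.30, a log2 difference of -0.73 ± 0.19 (edgeR adjusted p = 0.00313), in a contrast that called 2 of 5 genes and 32.3% of all genes. CRY1b also had its lowest ratio at Dark 0 h, 0.810 ± 0.130, and its highest at Dark 4 h, 1.48 ± 0.129, a difference of 0.86 ± 0.22 (adjusted p = 0.00493), in a contrast that called 2 of 5 and 25.9%. For both genes the 4 other times lay between, and both calls held whichever library was left out.

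CRY2 had higher ratios at Light 4 h (0.962 ± 0.141) and Light 8 h (0.934 ± 0.0641) than at the other 4 times, where they lay between 0.625 and 0.684. Between Light 0 h and Light 4 h it rose by 0.67 ± 0.18 (edgeR adjusted p = 0.0140, background 12.5%), lost without GMUCT Light 4 h replicate 1 (0.0562) or mRNA Light 0 h replicate 2 (0.0782). The fall from Light 8 h to Dark 0 h was -0.60 ± 0.18 (adjusted p = 0.00949) in a contrast that called 4 of 5 and 39.7%. This CRY2 call held whichever library was left out. In the same contrast, the calls of CRY1a (-0.50, adjusted p = 0.0310) and CRY1b (-0.55, adjusted p = 0.0481) were less firm. They were lost without any 1 of 7 (up to 0.116) and of 27 (up to 0.136) of the 36 libraries. For CRY2, Dark 4 h against Light 4 h (-0.52, adjusted p = 0.0418, background 18.5%) and Dark 8 h against Light 8 h (-0.52, adjusted p = 0.0460, background 17.4%), neither of which compares Dark 0 h, passed in the fit of all libraries. They were lost without any 1 of 13 (up to 0.138) and of 21 (up to 0.115) of the 36 libraries.

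CRY-DASH had the widest span, from 0.209 ± 0.0459 at Light 8 h to 1.11 ± 0.615 at Dark 0 h. The step between them was 2.36 ± 0.40 on the log2 scale, a 5.14-fold change in the ratio (edgeR adjusted p = 2.71e-05). In the same fit of all libraries, the contrast of Dark 8 h with Light 8 h, which does not compare Dark 0 h, was 1.57 ± 0.40 (adjusted p = 0.00679). Both calls held whichever library was left out. The fall from Light 4 h to Light 8 h was -1.47 ± 0.40 (adjusted p = 0.0229, background 5.46%), lost without any 1 of 6 of the 36 libraries (up to 0.0668), all of Light 4 h or Light 8 h. UVR8 had ratios of 4.53 ± 0.427 at Light 8 h to 8.53 ± 2.18 at Dark 8 h, and the contrast of these times did not pass (0.88, 95% interval 0.13 to 1.64, adjusted p = 0.0984), but did with DESeq2 (0.0343) and without mRNA Dark 0 h replicate 3 (0.0357).

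**Figure D4:**
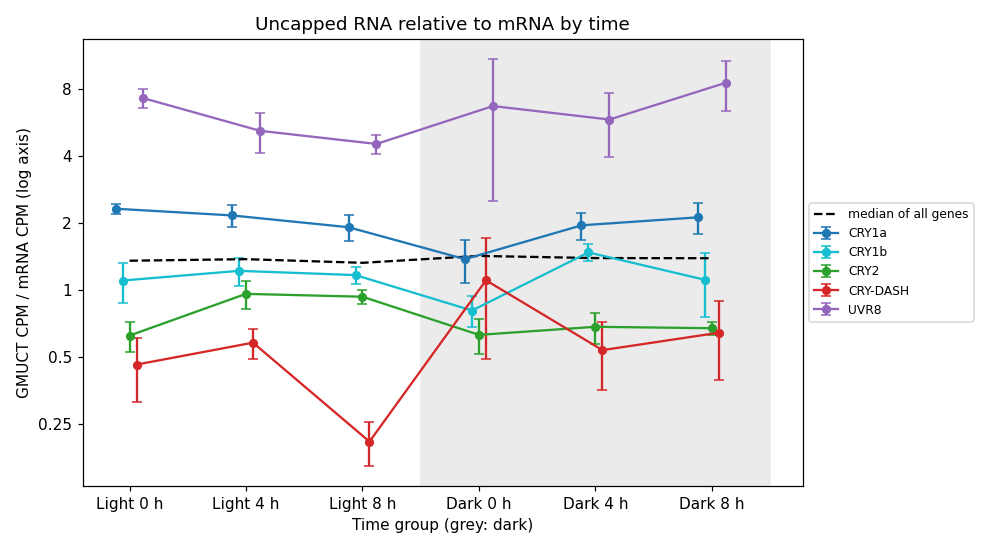
Ratio of the mean GMUCT CPM to the mean mRNA CPM (vertical axis, log scale) at the 6 times (horizontal axis) for the 5 genes, with bars for the SD carried over from both assays and a dashed line for the median of all genes. CRY-DASH runs from 0.209 at Light 8 h to 1.11 at Dark 0 h, and CRY1a and CRY1b have their lowest ratios, 1.38 and 0.810, at Dark 0 h.

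Over the whole day, the GMUCT to mRNA ratio was 2.01 for CRY1a, 1.12 for CRY1b, 0.725 for CRY2, 0.527 for CRY-DASH and 6.36 for UVR8, beside a median of 1.33 over all genes. The ratio of UVR8 lay at percentile 94.5 of all genes, and its mRNA counts were the lowest of the 5. No gene lengths were available, and the part of length in these ratios was not tested. The ratios therefore do not rank the genes by the share of their RNA that is uncapped. Over the 6 group means, mRNA and GMUCT of a gene correlated with r of 0.88 for CRY1a, 0.86 for CRY1b, 0.69 for CRY2, 0.85 for UVR8 and -0.68 for CRY-DASH. Without Dark 0 h these values over 5 means were 0.99, 0.97, 0.77, 0.79 and -0.47. They are descriptions of few points that share the same times.

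A list of 20 other identifiers of the light signalling pathway was set beside the 5 genes: 8 for other photoreceptors, 5 for the COP1-type ligase and UVR8 regulators, 2 for transcription factors and 5 for flavonoid synthesis. Their names could not be checked against the RefSeq table, so they are given as counts. Among the 6 times, 16 of 20 differed in mRNA and 18 of 20 in GMUCT (backgrounds 70.9 and 58.4%), and the ratio changed for 13 of 20 (53.7%). By sublist, mRNA differed for 6 of 8 photoreceptor identifiers, 4 of 5 ligase and regulator identifiers, 2 of 2 transcription factors and 4 of 5 flavonoid identifiers.

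Most of the called identifiers were lower at Dark 4 h and Dark 8 h than at the same hour of the light phase. Dark 0 h against Light 0 h called 12 in mRNA, 8 of them lower (median log2 change -0.45 beside -0.03 over all genes), and 11 in GMUCT, 6 of them lower (median -0.13 beside 0.02), against backgrounds of 36.9 and 46.5%. Dark 4 h against Light 4 h called 11 in mRNA, 10 of them lower, with a median log2 change of -0.79 beside 0.04 over all genes, and 14 in GMUCT, 12 of them lower, with a median of -0.67 beside 0.05 (backgrounds 45.7 and 33.3%). Dark 8 h against Light 8 h called 13 in mRNA, 10 of them lower (median -0.65 beside -0.01), and 11 in GMUCT, 8 of them lower (median -0.57 beside 0.004), with backgrounds of 50.1 and 32.8%. The sublists did not all run one way: at Dark 0 h, 3 photoreceptor identifiers were higher and 1 lower in mRNA, and at Dark 8 h, 2 ligase and regulator identifiers were higher and 1 lower in each assay. In the mRNA contrasts at Dark 4 h and Dark 8 h, CRY2 was higher in both, CRY1b was higher at Dark 8 h, CRY1a was lower at Dark 4 h and CRY-DASH was lower at Dark 8 h. In GMUCT, UVR8 was higher in both, CRY2 was higher at Dark 4 h, CRY1b was higher at Dark 8 h and CRY1a was lower at Dark 4 h.

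The genes whose mRNA was most like each receptor gene were taken by Pearson's r of log2 CPM over the 18 mRNA libraries, which share their times and scaling, among genes with a mean of at least 10 CPM. They were Solyc06g009120 (r = 0.94) and Solyc04g008570 (0.93) for CRY1a, Solyc04g082290 (0.95) and gene:Solyc06g071720.1 (0.95) for CRY1b, and Solyc11g008150 (0.97) and Solyc07g062640 (0.96) for CRY2. For CRY-DASH they were Solyc04g081480 (0.88) and Solyc12g006030 (0.87), and for UVR8 gene:Solyc07g005540.1 (0.87) and Solyc02g065680 (0.84). Of these genes, 7 of 10 had their highest mean at the same time as the receptor gene, which the choice by correlation over the same libraries favours. Those named for UVR8 were highest at Light 0 h, while UVR8 mRNA was highest at Dark 4 h. UVR8 itself, at a mean of 2.29 CPM, lay below the 10 CPM set for the genes compared with it. No names were at hand for the 10 genes.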

How the data were processed

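Raw read counts per gene, not normalised, were deposited by the authors in a table per library. The submitters' processing notes name the tools HTSeq, cutadapt and STAR 2.4.2a. Tool settings, genome build, annotation and strand use were not given in the sources used here, so reads of overlapping genes may be mixed. The 5 counters of reads outside genes were left out. Reads in genes made up 88.0 to 90.2% of mRNA counts and 54.4 to 85.3% of GMUCT counts. The lowest share was that of GMUCT Dark 4 h replicate 2, where 40.2% of reads aligned to multiple places. In the other GMUCT libraries this was 8.60 to 26.6%. The CRY2 calls in GMUCT over the day, for 24 h and at Dark 4 h against Light 4 h were lost without that library. Each was also lost without GMUCT Light 4 h replicate 3. The part of alignment in these calls was not tested.

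edgeR 4.0.16 in R 4.3.3 was used with filterByExpr, TMM scaling within each assay and quasi-likelihood F-tests on 18 libraries in 6 group means per assay. The ratio was tested in 36 libraries over genes past the filter in both assays. Benjamini-Hochberg adjustment ran over all genes of each test, with a threshold of 0.05. Members were tested over the day, for a 24 h cosine and sine, and in 9 contrasts. The SE is the absolute log2 change divided by the square root of F. log2 CPM used a prior count of 2. The procedure was tested on simulated data.

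Alternatives were DESeq2 1.42.0, RLE scaling, no filter, a replicate block, only the groups compared, and leaving out Dark 0 h or each library. No replicates agreed within sampling noise (lowest chi-square per degree of freedom 6.48). The rule for the members uses identifiers and no measured value, but members and lists were chosen with earlier results of these data known. Named genes were the members and, for each, the 2 genes most alike in mRNA. Promoter and protein sequences and a motif search were not used here.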

Additional observations from a re-analysis of the deposited data

Results flagged for a closer look

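The change over the 6 times differed between GMUCT and mRNA for 4 of the 5 genes by the test of the assay and time interaction (edgeR quasi-likelihood test). The adjusted p was 0.0158 for CRY1a, 0.0366 for CRY1b, 0.00335 for CRY2 and 0.000659 for CRY-DASH, against 53.7% of all genes tested. For CRY-DASH the 2 assays ran in opposite directions from Light 8 h to Dark 0 h, with log2 changes of -1.09 in mRNA and 1.30 in GMUCT. Without Dark 0 h the adjusted p was 0.574 for CRY1a, 0.453 for CRY1b, 0.00879 for CRY2 and 0.00448 for CRY-DASH. The part that the Dark 0 h libraries have in these differences was not tested beyond leaving them out, and whether their labels hold in both assays was not tested.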

How the results depend on the processing

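Of 51 called contrasts of the 5 genes, 29 held whichever library was left out (11 of 18 in mRNA, 13 of 20 in GMUCT and 5 of 13 in the ratio), as did 16 of 23 called tests over the day or for 24 h. Leaving out 1 library, adjusted p over the day ranged for UVR8 in mRNA from 0.0128 to 0.0643, for CRY2 in GMUCT from 0.0154 to 0.0767, and in the ratio for CRY1a from 0.00386 to 0.0694 and for CRY1b from 0.00619 to 0.113. For 24 h it ranged for UVR8 in mRNA from 0.0105 to 0.0659, and in GMUCT for CRY2 from 0.0114 to 0.0770 and for CRY-DASH from 0.0217 to 0.169. Uncalled changes from Light 0 h to Light 4 h changed sign, with log2 ranges of -0.18 to 0.015 for CRY2 in GMUCT and -0.069 to 0.29 for the CRY1b ratio. Without Dark 0 h, adjusted p was 0.174 for UVR8 in mRNA over the day, 0.308 for 24 h, 0.0402 for 24 h in CRY-DASH mRNA, and in the ratio 0.574 for CRY1a, 0.453 for CRY1b and 0.0497 for UVR8, and ratio calls over all genes fell from 10286 to 6537. RLE scaling ended 6 of the members' calls and added 2, and no filter ended 8 and added 0. Over the day, RLE scaling gave CRY2 in GMUCT 0.0515, and no filter gave CRY-DASH in GMUCT 0.0529 for 24 h. The other calls ended were contrasts. Each of the 2 settings ended those of CRY-DASH mRNA at Dark 0 h against Light 0 h (edgeR adjusted p = 0.0502 and 0.0504) and CRY1a GMUCT at Light 0 h to 4 h (0.0507 and 0.0641). Each also ended that of the CRY2 ratio at Dark 8 h against Light 8 h (0.0772 and 0.0873). Only some of the uncalled contrasts of the 5 genes were followed through the alternatives, so counts of added calls cover those alone. Fitting the compared groups alone ended 18 of the 51 called contrasts. Among the uncalled contrasts followed, it added 4 (CRY2 and CRY-DASH mRNA and CRY-DASH GMUCT at Light 4 h to 8 h, and CRY-DASH GMUCT at Dark 8 h against Light 8 h). Of the 18, UVR8 mRNA at Dark 0 h against Light 0 h had held whichever library was left out. In that fit the calls over all genes went from 3291 to 5223 (mRNA, Light 4 h to 8 h), 4664 to 2868 and 5339 to 2841 (Dark 0 h to 4 h, mRNA and GMUCT), 3032 to 1616 and 867 to 184 (Dark 4 h to 8 h), 1293 to 639 (GMUCT, Dark 8 h to Light 0 h), and in the ratio 1047 to 2310 (Light 4 h to 8 h) and 4968 to 3184 (Dark 0 h to 4 h). In GMUCT DESeq2 called 2737 genes against 1795 at Light 8 h to Dark 0 h and 1761 against 867 at Dark 4 h to 8 h. Leaving out 1 library took the lowest GMUCT counts there to 791 and 323, and the mRNA count at Dark 8 h to Light 0 h from 1167 to 607. DESeq2 ended none of the members' calls and added 5 among the uncalled contrasts followed. Same-numbered libraries of different times within an assay did not deviate together on average (mean r -0.02 in mRNA and 0.04 in GMUCT over 45 pairs each). Single pairs ranged from -0.32 to 0.33 in mRNA and from -0.53 to 0.55 in GMUCT, so a mean near 0 cannot exclude pairing. Whether same-numbered mRNA and GMUCT libraries of a time came from the same RNA was not tested. The replicate block ended none of the members' calls and added 2 among the uncalled contrasts followed. They were the log2 change of CRY-DASH in GMUCT at Dark 8 h against Light 8 h (0.66, edgeR adjusted p = 0.0384) and of its ratio from Dark 0 h to Dark 4 h (-1.14, adjusted p = 0.0289). By Spearman's rho, 1 of the 2 most alike genes was shared for CRY1a, CRY1b, CRY2 and CRY-DASH and 0 for UVR8. UVR8 mRNA, at 6 to 79 counts a library, is limited by depth.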
